A study of Mus musculus with 10 samples.

Results

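DEAD-box and DEAH-box RNA helicases were examined in mouse splenic B cells as genes whose symbol in the array's probe table starts with Ddx or Dhx and a number. The rule found 47 genes, 32 named Ddx and 15 named Dhx, among the 18300 genes with a symbol on the array. It goes by name alone, so the genes, called members or helicase genes below, need not all be RNA helicases. The rule matched 58 probes, and 36 of the 47 genes had a single probe. Ddx6 was averaged over 4 probes, of which 2 matched the rule and the others were listed under older clone names. The gene listed as Ddx26b is now called Ints6l, and Ddx39 is now Ddx39a. The mouse RefSeq annotation, assembly GRCm38.p6, names 53 genes in this way, and 46 of them were in the set. Ddx19a, Ddx39b, Ddx3y, Ddx43, Ddx49, Ddx60 and Dhx58 were not selected by the rule, since the array lists Ddx39b and Dhx58 under older names and the others not under these names.

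DEAD-box and DEAH-box helicases use ATP to clamp, unwind or strip RNA and the proteins bound to it. DEAD-box members mostly open short duplexes locally, whereas DEAH-box members move along a strand and pull on it. Each step of an RNA's life uses its own members, from ribosomal RNA maturation in the nucleolus through splicing, export and translation to decay, and some members also sense viral RNA. A resting B cell is small and makes few ribosomes, and ligation of its antigen receptor starts growth that needs many more.

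The study isolated B cells with a B cell isolation kit from spleens of female mice, 2 months old, labelled Ptger4-/- or Ptger4+/+. Ptger4 encodes EP4, a receptor for prostaglandin E2 (PGE2) that raises cyclic AMP. Cells were cultured in IMDM medium with F(ab')2 antibodies, called BCR in the sample names and anti-IgM here, for 2 h against medium alone, or for 24 h with PGE2 and the antibodies against the antibodies alone. Each of 5 comparisons was a direct hybridisation of one RNA against the other on 2 two-colour arrays with exchanged dyes, 10 arrays in all: anti-IgM over medium in Ptger4-/- and in Ptger4+/+ cells, PGE2 with anti-IgM over anti-IgM in Ptger4-/- and in Ptger4+/+ cells, and Ptger4-/- over Ptger4+/+ cells with both agents. No strain background, PGE2 dose, type of deletion or number of mice per RNA was given, and nothing says that the 2 arrays of a comparison came from separate cultures, so p-values measure the spread between arrays, which may be technical.

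The values are log ratios, read as log2, and give no levels. Both channels are named in the labels, but the direction of the deposited ratio is only likely: read as Cy5 over Cy3, 8 of 12 immediate-early genes were called higher with anti-IgM in each genotype and none lower. The array pairs correlated over all 25344 probes with r = 0.74 and 0.71 for anti-IgM in Ptger4-/- and Ptger4+/+ cells, -0.21 and 0.39 for PGE2 in Ptger4-/- and Ptger4+/+ cells, and 0.57 for the genotypes. The Ptger4 probe did not show a loss in the RNA labelled Ptger4-/-: it read 0.46 and 0.52 over Ptger4+/+ on the 2 arrays. The probe's place relative to the deletion is not given, so genotypes are given below as labelled. Of the B cell markers, 6 of 7 were measured, and 5 were lower with anti-IgM in each genotype. With PGE2 at 24 h, 1 B cell marker was lower in Ptger4-/- cells and none higher, and in Ptger4+/+ cells 3 were higher and 1 lower. For Ptger4-/- over Ptger4+/+ cells, 1 B cell marker was higher and 3 were lower, and Cd79a, a chain of the antigen receptor, read -1.18 ± 0.06 there. Ratios of the 6 markers ran from -0.81 to 0.05 with PGE2 in Ptger4-/- cells, from -0.65 to 0.92 with PGE2 in Ptger4+/+ cells, and from -1.18 to 0.66 between genotypes. No T cell, NK cell or neutrophil marker was called in any 24 h comparison, and 2 of 6 T cell markers were higher with anti-IgM in each genotype. Monocyte, dendritic cell and red cell markers had at most 1 call in each direction per comparison. The part of these markers in the helicase results was not tested.

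At 2 h, anti-IgM raised about as many helicase genes in Ptger4-/- as in Ptger4+/+ cells, and most of them were helicases of ribosome assembly. In cells labelled Ptger4-/-, 18 of 47 members were called higher and 3 lower (limma, adjusted p under 0.05 over 22533 features), where 11.6% of all features were called higher and 11.7% lower. In cells labelled Ptger4+/+, 20 members were called higher and 6 lower, against 9.71% and 11.4% of all features. The labels give no replicate numbers, so replicates 1 and 2 of a comparison are numbered here in the listed order of its arrays. Without replicate 1 of the Ptger4+/+ arrays, 9 members were called higher and 1 lower, and without replicate 2, 2 were called lower. The median member ratio was 0.08 in Ptger4-/- and 0.14 in Ptger4+/+ cells, and over all features it was 0.00420 and 0.00466. Such ratios are of RNA from whole cultures, in which fewer cells of a type and less RNA per cell cannot be told apart.

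**Figure D1:**
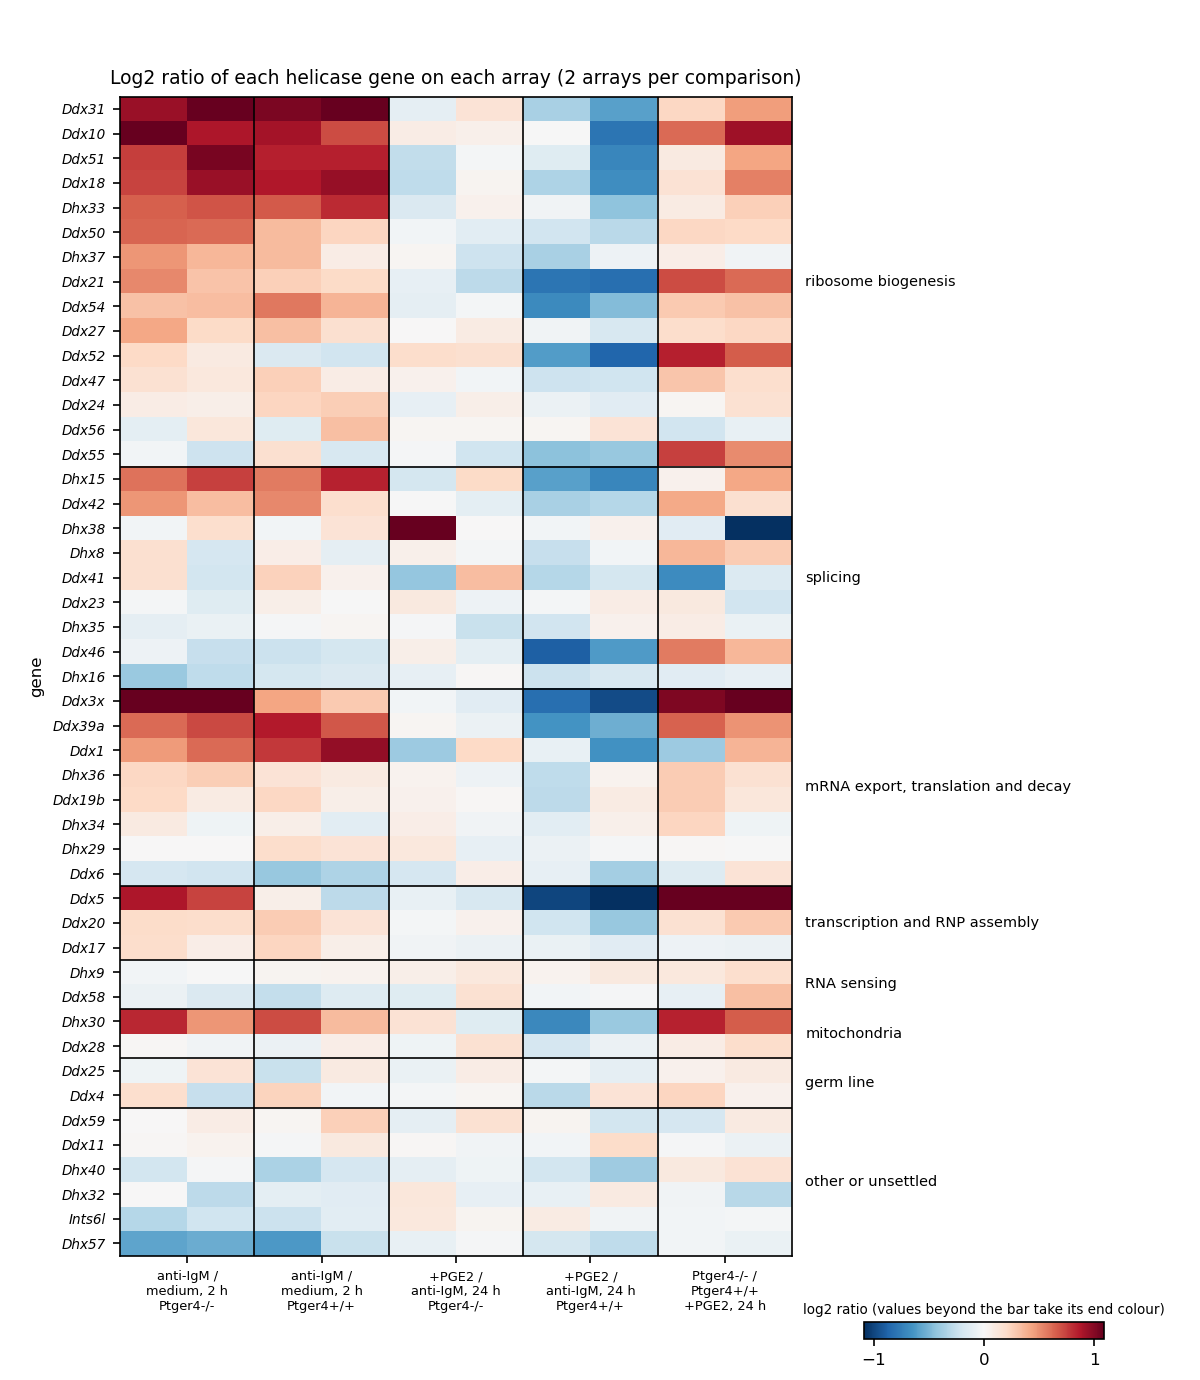
Log2 ratio of each of the 47 helicase genes (rows, grouped by known role) on each of the 10 arrays (columns, 2 per comparison, each comparison named below as the RNA on top of the ratio over the other); red is higher and blue lower, and ratios beyond the colour bar take its end colour. Ribosome assembly genes are mostly red in both anti-IgM comparisons, and the 24 h PGE2 columns are blue for many genes in Ptger4+/+ cells; Dhx38 has 1 deep array in each of 2 comparisons.

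Ribosome assembly holds the largest group, with 15 measured members. With anti-IgM, 10 of them rose in Ptger4-/- cells and 12 rose in Ptger4+/+ cells, none fell, and the 10 rose in both: Ddx10, Ddx18, Ddx21, Ddx27, Ddx31, Ddx50, Ddx51, Ddx54, Dhx33 and Dhx37. Their group's median ratio was 0.41 in Ptger4-/- and 0.25 in Ptger4+/+ cells. Ddx31, a nucleolar helicase, had the largest rise of the group: 0.94 and 1.33 in Ptger4-/- cells and 1.03 and 1.29 in Ptger4+/+ cells on the 2 arrays of each. Its fitted ratios were 1.13 ± 0.04 in Ptger4-/- and 1.16 ± 0.04 in Ptger4+/+ cells (standard error of the fit, 2 arrays each, limma adjusted p = 3.92e-06 and 4.81e-06). The standard error is smaller than the gap between arrays because the fit takes out a dye effect that all 10 arrays share. Ddx31 was the member at least 2-fold higher on both Ptger4+/+ arrays, a mark that 1.02% of all features reached there. All 4 arrays lay far above 0, and the arrays of the genotypes overlapped.

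Ddx10, whose yeast counterpart Dbp4 works on the small ribosomal subunit, read 1.09 and 0.88 in Ptger4-/- cells and 0.90 and 0.71 in Ptger4+/+ cells. Its mean was 0.98 ± 0.16 in Ptger4-/- and 0.81 ± 0.16 in Ptger4+/+ cells (limma adjusted p = 0.00345 and 0.0104), with a standard error well above that of Ddx31. Ddx51, which acts in maturation of large-subunit ribosomal RNA, read 0.75 and 1.03 in Ptger4-/- cells, against 0.85 and 0.84 in Ptger4+/+ cells. The arrays of the genotypes overlapped for both genes. The Ddx10 calls were lost without replicate 1 of the Ptger4-/- arrays and without replicate 1 of the Ptger4+/+ arrays, each in its own genotype. Ddx18, whose yeast counterpart Has1 serves both subunits, read 0.73 and 0.94 in Ptger4-/- cells, and 0.87 and 0.95 in Ptger4+/+ cells, with means of 0.84 ± 0.06 in Ptger4-/- and 0.91 ± 0.06 in Ptger4+/+ cells (limma adjusted p = 4.95e-05 and 4.16e-05). Dhx33, a nucleolar helicase that promotes transcription of ribosomal DNA, read 0.65 and 0.68 in Ptger4-/- cells, against 0.67 and 0.81 in Ptger4+/+ cells. Both genes stood clear of 0 on all 4 arrays. The 2 Dhx33 probes differed in size, from 0.36 to 0.98 in Ptger4-/- cells and from 0.27 to 1.21 in Ptger4+/+ cells, and each of them was called higher.

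The paralogs Ddx21 and Ddx50 are neighbouring genes on chromosome 10 in GRCm38.p6. Ddx21, which links RNA polymerase I transcription to ribosomal RNA processing in human cells, read 0.52 and 0.31 in Ptger4-/- cells, against 0.26 and 0.21 in Ptger4+/+ cells. Ddx50 read 0.63 and 0.61 in Ptger4-/- cells, against 0.34 and 0.24 in Ptger4+/+ cells. Both neighbours rose in each genotype, with the higher mean in Ptger4-/- cells for each gene. The difference between genotypes was 0.18 ± 0.08 for Ddx21 and 0.33 ± 0.07 for Ddx50 and did not pass for either (limma adjusted p = 0.359 and 0.0642). Of the 2 Ddx50 probes taken singly, 1 was called higher in this difference, at 0.50, and the other was not, at 0.17. Ddx54, Ddx27 and Dhx37, the last a homologue of the yeast helicase that frees U3 small nucleolar RNA, also rose, with fitted ratios from 0.31 to 0.42 in Ptger4-/- cells and from 0.21 to 0.47 in Ptger4+/+ cells. Ddx24 and Ddx47 were not called in Ptger4-/- cells, at 0.07 ± 0.05 and 0.14 ± 0.04, and were called higher in Ptger4+/+ cells, at 0.25 ± 0.05 and 0.17 ± 0.04, and their difference between genotypes did not pass. Of the 2 Ddx24 probes, 1 was called higher in Ptger4+/+ cells, at 0.42, and the other was not, at 0.08. Ddx52, Ddx55 and Ddx56, whose yeast counterparts also build ribosomes, were not called in either genotype, with ratios between -0.18 and 0.16.

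Sequences around the annotated transcript starts of the members were searched for the E-box CACGTG, the site of Myc and Max, since Myc drives ribosome genes in growing lymphocytes. RefSeq windows of 300 bases, mostly upstream of a start (GRCm38.p6), were found for 42 of 47 members, with 52 windows. The letters CACGTG, which read the same on both strands, occurred in 7 of the 52 windows (13.5%), and in 7.15% of all 32851 windows of that length. Counted by gene with a match in any window, these were 7 of 42 members (16.7%), and 8.09% of all genes with a window. Among the 15 ribosome assembly members, 1 had a match (6.67%), Dhx33. Of the 21 members with a window that were called higher with anti-IgM in either genotype, 3 had one (14.3%): Dhx33, Ddx42 and Ddx5. Their windows are shown 5′ to 3′ on the strand of the gene, with the E-box in capitals: Dhx33 at chr11:71004383-71004682 on the minus strand, Ddx42 at chr11:106230416-106230715 on the plus strand, and Ddx5 at chr11:106788858-106789157 on the minus strand. The match starts 35 bases before the transcript start in Dhx33, 148 before it in Ddx42 and 30 before it in Ddx5. The start used for Ddx42 lies 13779 bases inside the annotated gene, and of its 2 windows the one at the gene's 5′ end has no match. For Ddx5, 1 of 3 windows matched, at a start 278 bases inside the gene. A match describes letters in the window only, and a window without one says nothing about the factor.
Dhx33: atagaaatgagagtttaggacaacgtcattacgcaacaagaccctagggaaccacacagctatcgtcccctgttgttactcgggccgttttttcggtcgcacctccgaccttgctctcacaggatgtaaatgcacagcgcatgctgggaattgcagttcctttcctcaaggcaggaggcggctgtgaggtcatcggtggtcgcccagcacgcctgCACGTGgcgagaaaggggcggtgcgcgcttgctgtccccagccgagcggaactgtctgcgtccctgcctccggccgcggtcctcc
Ddx42: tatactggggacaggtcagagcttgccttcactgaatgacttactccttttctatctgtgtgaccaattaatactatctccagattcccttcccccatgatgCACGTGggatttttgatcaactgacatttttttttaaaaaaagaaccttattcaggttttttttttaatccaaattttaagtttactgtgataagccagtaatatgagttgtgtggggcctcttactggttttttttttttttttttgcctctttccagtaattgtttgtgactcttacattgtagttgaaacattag
Ddx5: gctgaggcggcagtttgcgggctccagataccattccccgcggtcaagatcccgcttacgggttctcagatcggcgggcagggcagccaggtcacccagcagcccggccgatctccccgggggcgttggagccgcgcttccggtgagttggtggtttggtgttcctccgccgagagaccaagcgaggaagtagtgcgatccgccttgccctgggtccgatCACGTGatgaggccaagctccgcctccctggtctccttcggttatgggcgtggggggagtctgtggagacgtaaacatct

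Among 8 members of mRNA export, translation and decay, 4 rose with anti-IgM in Ptger4-/- cells and none fell, and in Ptger4+/+ cells 4 rose and 1 fell. Of all features, 11.6% were called higher and 11.7% lower in Ptger4-/- cells, and 9.71% and 11.4% in Ptger4+/+ cells. Ddx39a, a paralog of the export helicase Ddx39b, read 0.62 and 0.72 in Ptger4-/- cells, against 0.86 and 0.68 in Ptger4+/+ cells (limma adjusted p = 0.000103 and 6.29e-05). Ddx1, a part of the tRNA ligase complex, read 0.46 and 0.62 in Ptger4-/- cells, against 0.77 and 0.96 in Ptger4+/+ cells. Its Ptger4-/- arrays both lay below its Ptger4+/+ arrays, and the difference between genotypes, -0.32 ± 0.15, did not pass (limma adjusted p = 0.445). Dhx36, which unwinds G-quadruplexes, rose by 0.25 ± 0.06 in Ptger4-/- cells and was not called in Ptger4+/+ cells at 0.12 ± 0.06. Dhx29, which helps ribosomes scan structured leaders, was not called in Ptger4-/- cells at 0.01 ± 0.05 and rose by 0.17 ± 0.05 in Ptger4+/+ cells. For neither did the difference between genotypes pass. Of the 2 Dhx29 probes, 1 was called higher in Ptger4+/+ cells, at 0.23, and the other was not, at 0.11. Ddx6, a repressor of translation that joins the decapping machinery, was not called in Ptger4-/- cells at -0.20 ± 0.06 and was called lower in Ptger4+/+ cells at -0.38 ± 0.06. Its 4 probes ranged from -1.01 to -0.00200 in Ptger4+/+ cells, and the call was lost when probes listed under 2 older clone names were left out, and without replicate 2.

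Ddx3x was the member most raised by anti-IgM in Ptger4-/- cells. This X-linked helicase helps translation of mRNAs with structured leaders. It read 1.73 and 1.55 in Ptger4-/- cells, against 0.43 and 0.29 in Ptger4+/+ cells. It was the member at least 2-fold higher on both Ptger4-/- arrays, as were 1.6% of all features. The groups did not overlap, and its lower Ptger4-/- array was more than 1 log2 unit above its higher Ptger4+/+ array. The fitted rises were 1.64 ± 0.07 in Ptger4-/- and 0.36 ± 0.07 in Ptger4+/+ cells (limma adjusted p = 3.98e-06 and 0.00641), and their difference was 1.28 ± 0.09 (2 arrays against 2, limma adjusted p = 0.00627). Ddx5, a coactivator of transcription that also takes part in splicing and microRNA processing, was the only other member whose anti-IgM response differed between the genotypes past the limit. It read 0.88 and 0.74 in Ptger4-/- cells, against 0.07 and -0.29 in Ptger4+/+ cells, where it was not called. The difference was 0.92 ± 0.10 (limma adjusted p = 0.0195), and both Ddx5 probes had it, at 0.83 and 1.01. These 2 of 47 members compare with 1.13% of all features called higher in this difference and 0.608% called lower, and no member was called lower. The Ddx5 call was lost in 7 of 11 alternatives, among them leaving out either Ptger4-/- array or replicate 2 of Ptger4+/+, and the Ddx3x call was lost in 2 of 11. The Ddx3x rise in Ptger4+/+ cells was not called without replicate 1.

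**Figure D2:**
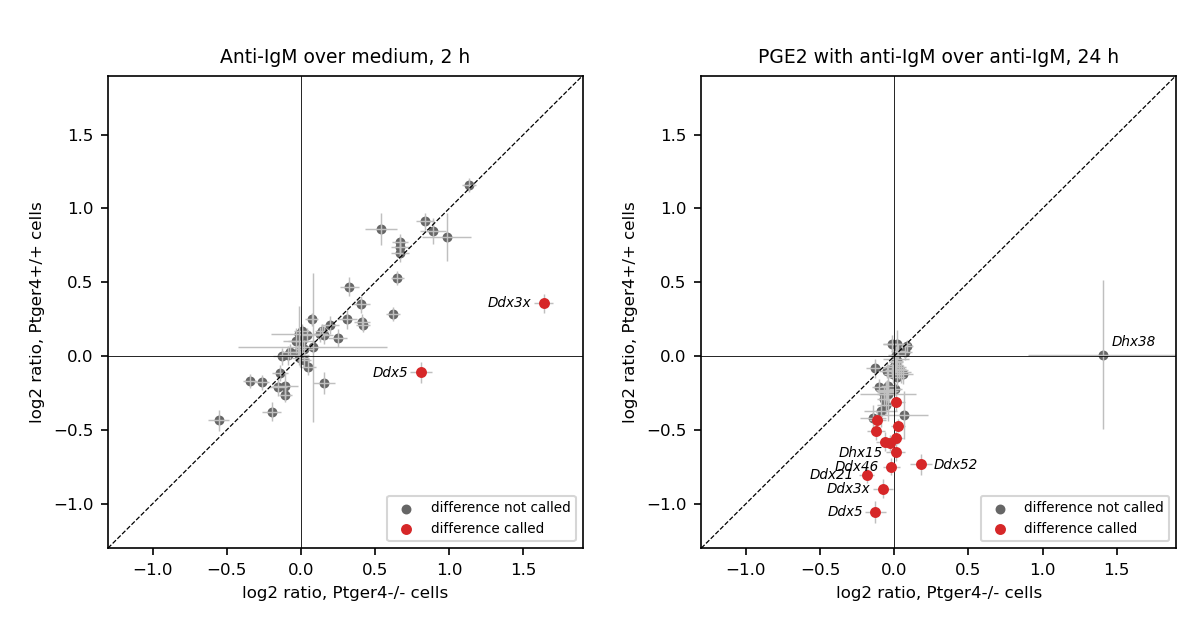
Fitted log2 ratio of the 47 members in Ptger4-/- cells (horizontal axis) and Ptger4+/+ cells (vertical axis), for anti-IgM over medium at 2 h (left) and PGE2 with anti-IgM over anti-IgM at 24 h (right); bars are standard errors of the fit, the dashed line is equality, and red marks members whose difference between genotypes was called. On the left most members lie near the line and Ddx3x and Ddx5 to its right, and on the right the 13 red members lie below 0 in Ptger4+/+ cells and near 0 in Ptger4-/- cells.

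Across the 47 members the anti-IgM ratios of Ptger4-/- and Ptger4+/+ cells, which come from different RNAs, correlated with Pearson's r = 0.79 and Spearman's rho = 0.84, given as a description, since genes on the same arrays are not replicates. Called higher in both genotypes were 16 members, 3 were called lower in both, 19 were called in neither, and none was called in opposite directions.

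Of 9 splicing helicases, 2 rose and 1 fell with anti-IgM in Ptger4-/- cells, and 2 rose and 2 fell in Ptger4+/+ cells. The shares of all features called higher and lower were 11.6% and 11.7% in Ptger4-/- cells, and 9.71% and 11.4% in Ptger4+/+ cells. Dhx15, whose yeast counterpart Prp43 takes spliceosomes apart and also works on ribosomes, read 0.59 and 0.75 in Ptger4-/- cells, against 0.57 and 0.83 in Ptger4+/+ cells (limma adjusted p = 0.000160 and 0.000158). Ddx42, an associate of the U2 small nuclear ribonucleoprotein, rose by 0.41 ± 0.06 in Ptger4-/- and 0.35 ± 0.06 in Ptger4+/+ cells. Against these, Dhx16, counterpart of the yeast helicase Prp2 that activates the spliceosome, read -0.41 and -0.28 in Ptger4-/- cells, and -0.19 and -0.15 in Ptger4+/+ cells, below 0 on all 4 arrays. Ddx46, counterpart of yeast Prp5, was not called in Ptger4-/- cells at -0.15 ± 0.06 and was called lower in Ptger4+/+ cells at -0.21 ± 0.06, but its 2 probes went apart, from -0.54 to 0.23 in Ptger4-/- cells and from -0.45 to 0.03 in Ptger4+/+ cells. The Ptger4+/+ call of Dhx16 was lost without either array, and that of Ddx46 without replicate 1. Ddx23, Ddx41, Dhx8, Dhx35 and Dhx38, which serve other steps of the splicing cycle, were not called in either genotype.

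Outside these roles, Dhx30, a helicase of mitochondrial ribosome assembly, read 0.82 and 0.48 in Ptger4-/- cells, against 0.71 and 0.34 in Ptger4+/+ cells, called higher in each. Ddx28, the other mitochondrial member, was not called, at -0.01 ± 0.06 in Ptger4-/- and 0.005 ± 0.06 in Ptger4+/+ cells. Ddx20, which belongs to the SMN complex that assembles small nuclear ribonucleoproteins, was not called in Ptger4-/- cells at 0.20 ± 0.06 and rose by 0.21 ± 0.06 in Ptger4+/+ cells, a small difference that did not pass. Ddx17, a paralog of Ddx5, was not called at 0.13 ± 0.05 in Ptger4-/- and 0.15 ± 0.05 in Ptger4+/+ cells.

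Among 6 members of other or unsettled role, 2 fell with anti-IgM in Ptger4-/- cells and 3 in Ptger4+/+ cells, and none rose. All features were called lower for 11.7% in Ptger4-/- and 11.4% in Ptger4+/+ cells. Dhx57 read -0.57 and -0.54 in Ptger4-/- cells, against -0.62 and -0.24 in Ptger4+/+ cells, the largest falls of the family in both genotypes (limma adjusted p = 0.000930 and 0.00384). Ints6l, which resembles a subunit of the Integrator complex, read -0.31 and -0.22 in Ptger4-/- cells, against -0.23 and -0.12 in Ptger4+/+ cells, and was called lower in each. Only 1 of its 2 probes fell, at -0.65 in Ptger4-/- and -0.48 in Ptger4+/+ cells, while the other read 0.13 in Ptger4-/- and 0.12 in Ptger4+/+ cells. The Ints6l call was lost in 4 of 9 alternatives in Ptger4-/- cells and in 7 of 9 in Ptger4+/+ cells, in each genotype when either array was left out. Dhx40 was not called in Ptger4-/- cells at -0.10 ± 0.05 and was called lower in Ptger4+/+ cells at -0.26 ± 0.05, a call lost without either array. The Ptger4+/+ call of Dhx57 was lost without replicate 1. The RNA sensors Ddx58, which encodes RIG-I, and Dhx9, a nuclear helicase that also binds foreign nucleic acid, were not called: Ddx58 read -0.07 and -0.15 in Ptger4-/- cells, against -0.26 and -0.14 in Ptger4+/+ cells, and Dhx9 read -0.03 and -0.0022 in Ptger4-/- cells, against 0.03 and 0.03 in Ptger4+/+ cells. The germ line helicases Ddx4 and Ddx25 were not called in any of the 5 comparisons.

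At 24 h, adding PGE2 to anti-IgM left no helicase gene called in Ptger4-/- cells, whereas in Ptger4+/+ cells 24 of 47 members were called lower and none higher. In Ptger4-/- cells limma called 0.00888% of all features higher and 0.138% lower. At an unadjusted p under 0.05 limma's count of members there was 3, namely Dhx38, Ddx52 and Ddx21. In Ptger4+/+ cells 17% of all features were called lower and 9.11% higher. The median member ratio was -0.01 in Ptger4-/- and -0.22 in Ptger4+/+ cells, and over all features it was 0.00175 and 0.00838. The members had the same sign on both arrays for 20 of 47 genes in Ptger4-/- cells and 36 of 47 in Ptger4+/+ cells. Over all features the sign was shared by 37.5% in Ptger4-/- and 58.8% in Ptger4+/+ cells. Without replicate 2 of the Ptger4+/+ arrays 13 members were called lower, without replicate 1 there were 20, and with a fit to only these 2 arrays 6.

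Ribosome assembly genes again made up the largest share. In Ptger4-/- cells none of 15 was called, with a median of -0.05, and in Ptger4+/+ cells 11 of 15 fell, with a median of -0.40. Ddx21 read -0.09 and -0.28 in Ptger4-/- cells and -0.79 and -0.82 in Ptger4+/+ cells (limma adjusted p = 0.421 and 0.000118). The 2 Ptger4+/+ arrays nearly coincided and lay well below both Ptger4-/- arrays. Ddx52, whose yeast counterpart Rok1 serves the small subunit, read 0.19 and 0.17 in Ptger4-/- cells, and -0.61 and -0.86 in Ptger4+/+ cells, so that the genotypes lay on opposite sides of 0. Ddx52 had not been called with anti-IgM at 2 h. Ddx54 read -0.10 and -0.02 in Ptger4-/- cells, against -0.69 and -0.47 in Ptger4+/+ cells. Ddx18 read -0.28 and 0.03 in Ptger4-/- cells, against -0.34 and -0.67 in Ptger4+/+ cells, with a wider gap between its arrays. Ddx31 read -0.10 and 0.15 in Ptger4-/- cells, against -0.35 and -0.59 in Ptger4+/+ cells. Both genes were called lower in Ptger4+/+ cells (limma adjusted p = 0.00105 and 0.000435). Ddx55, Ddx51, Ddx50, Dhx33, Ddx47 and Dhx37 fell by less there, with ratios from -0.43 to -0.21. The arrays of Ddx51, with -0.13 and -0.71, Dhx33, with -0.04 and -0.44, and Dhx37, with -0.35 and -0.06, lay further apart. With Cy5 on the RNA on top of the ratio, Dhx33 read higher and Dhx37 lower in each comparison. Ddx51 also read higher with Cy5 there, except for anti-IgM in Ptger4+/+ cells, where its arrays nearly coincided. The fit takes out such dye effects. Of the 2 Dhx33 probes, 1 was called lower. The arrays of Ddx55, Ddx50 and Ddx47 lay closer together. Ddx10 was not called in Ptger4+/+ cells, since one array read -0.0019 and the other -0.79, and Ddx24, Ddx27 and Ddx56 were not called either.

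**Figure D3:**
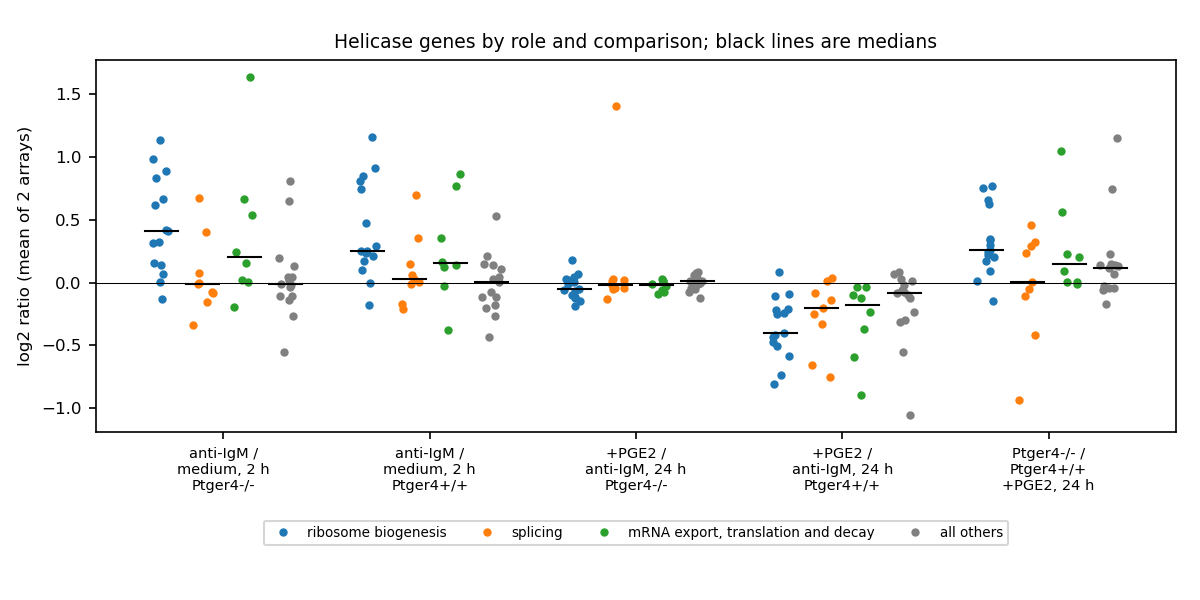
Fitted log2 ratio of each member (points) by role group and comparison, with the group medians as black lines; the RNA named first in each label is on top of the ratio. The ribosome assembly median is 0.41 and 0.25 with anti-IgM in Ptger4-/- and Ptger4+/+ cells, -0.05 and -0.40 with PGE2 in Ptger4-/- and Ptger4+/+ cells, and 0.26 for Ptger4-/- over Ptger4+/+ cells; the lone splicing gene near 1.4 is Dhx38.

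Beyond the ribosome, Ddx5 and Ddx3x had the largest falls with PGE2. Ddx5 read -0.08 and -0.17 in Ptger4-/- cells and -0.999 and -1.11 in Ptger4+/+ cells. Its fitted ratio was -0.13 ± 0.07 in Ptger4-/- cells, not called, and -1.05 ± 0.07 in Ptger4+/+ cells (limma adjusted p = 0.000131). Ddx3x read -0.03 and -0.12 in Ptger4-/- cells, against -0.82 and -0.97 in Ptger4+/+ cells (limma adjusted p = 0.858 and 0.000160). For both genes the Ptger4-/- arrays lay near 0 and both Ptger4+/+ arrays near or below -0.8. Of 9 splicing helicases none was called in Ptger4-/- cells and 4 fell in Ptger4+/+ cells: Ddx46, Dhx15, Ddx42 and Dhx16. Over all features 17% were called lower in Ptger4+/+ cells. Ddx46 read 0.06 and -0.10 in Ptger4-/- cells, against -0.89 and -0.61 in Ptger4+/+ cells, and there both of its probes were called lower, at -0.95 and -0.55. Dhx15 read -0.19 and 0.21 in Ptger4-/- cells, against -0.59 and -0.71 in Ptger4+/+ cells. The Ptger4-/- arrays of Dhx15 lay on either side of 0, while its Ptger4+/+ arrays were both low.

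Of the 8 members of export, translation and decay, 4 fell in Ptger4+/+ cells, against 17% of all features: Ddx3x, Ddx39a, Ddx1 and Ddx6. Ddx39a read 0.02 and -0.07 in Ptger4-/- cells, against -0.65 and -0.53 in Ptger4+/+ cells. Ddx1 read -0.40 and 0.22 in Ptger4-/- cells and -0.08 and -0.66 in Ptger4+/+ cells (limma adjusted p = 0.0449 in Ptger4+/+ cells). In each comparison its higher reading came from the array that had the RNA on top of the ratio in Cy5. The fit takes out such a dye effect. Ddx6 read -0.09 and -0.37 in Ptger4+/+ cells. Its 4 probes ran from -0.49 to 0.05 there, and 2 of them were called lower. Dhx30 read 0.15 and -0.13 in Ptger4-/- cells, against -0.70 and -0.40 in Ptger4+/+ cells, and was called lower in Ptger4+/+ cells. Ddx20, Dhx40 and Dhx57 were called lower in Ptger4+/+ cells, at -0.31, -0.29 and -0.23. Without replicate 2 of Ptger4+/+, Ddx20 was not called. The sensors Ddx58, with -0.14 and 0.17 in Ptger4-/- and -0.03 and -0.01 in Ptger4+/+ cells, and Dhx9, with 0.06 and 0.11 in Ptger4-/- and 0.04 and 0.10 in Ptger4+/+ cells, were not called.

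The difference of the PGE2 response between genotypes was called for 13 members, all higher in Ptger4-/- than in Ptger4+/+ cells, where 9.33% of all features were called higher and 3.33% lower. They were 6 ribosome assembly genes (Ddx18, Ddx21, Ddx31, Ddx52, Ddx54 and Ddx55), Ddx46 and Dhx15 of splicing, Ddx3x and Ddx39a, Ddx5 and Ddx20, and Dhx30. The largest differences were 0.93 ± 0.10 for Ddx5, 0.91 ± 0.10 for Ddx52, 0.82 ± 0.09 for Ddx3x, 0.73 ± 0.08 for Ddx46 and 0.66 ± 0.09 for Dhx15 (2 arrays against 2, limma adjusted p up to 0.00356). Each of the 13 was called lower with PGE2 in Ptger4+/+ cells, and none was called in Ptger4-/- cells. None of the 13 calls was made in a fit to only the 4 arrays compared. The call was lost in 9 of 11 alternatives for Ddx18, among them each of the 4 arrays left out in turn, in 8 of 11 for Ddx20 and Ddx55 and in 6 of 11 for Ddx54. Ddx20 and Ddx55 lost it without either Ptger4-/- array or replicate 2 of Ptger4+/+, and Ddx54 without replicate 1 of Ptger4+/+ or replicate 2 of Ptger4-/-. For the other 9 members it was lost in 2 or 3 of 11, none of them with an array left out.

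The largest member ratio with PGE2 came from a single array. Dhx38, counterpart of the yeast splicing helicase Prp16, read 2.81 and 0.01 with PGE2 in Ptger4-/- cells, and -0.03 and 0.05 in Ptger4+/+ cells. In the comparison of genotypes it read -0.12 and -1.75. One array of Ptger4-/- PGE2 and one of the genotypes stood apart while their partners read nearer 0, so the gene, measured by 1 probe, was called in none of the 5 comparisons and its standard error was 0.50, above that of every other member.

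Most members raised by anti-IgM at 2 h were lower with PGE2 at 24 h in Ptger4+/+ cells. Of the 16 called higher in both genotypes at 2 h, 14 were called lower with PGE2 in Ptger4+/+ cells (87.5%), and those 14 were 58.3% of the 24 that fell. Over all features the same shares were 63.4% of 1748 and 28.9% of 3835. The 2 h and 24 h arrays carry different RNAs, and no test was made of this overlap. The members that rose at 2 h in both genotypes and were not called with PGE2 were Ddx10 and Ddx27.

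With both agents at 24 h, 21 of 47 helicase genes were higher in Ptger4-/- than in Ptger4+/+ cells and none was lower, where limma called 15.9% of all features higher and 11% lower. Each RNA on these arrays is of a kind also used in the PGE2 comparisons, so the values are set beside those and are not a separate line of evidence. The median member ratio was 0.15, and over all features it was -0.000906. Leaving out replicate 1 lowered the count to 11, and leaving out replicate 2 lowered it to 9. By role, 9 of 15 ribosome assembly genes, 4 of 9 splicing genes, 4 of 8 genes of export, translation and decay, Ddx5, Ddx20, Dhx30 and Dhx9 were higher.

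Ddx5 read 1.20 and 1.10 for Ptger4-/- over Ptger4+/+ cells, and Ddx3x read 1.01 and 1.09. They were the members at least 2-fold higher on both arrays, with fitted ratios of 1.15 ± 0.07 and 1.05 ± 0.07 (limma adjusted p = 5.64e-05 and 5.38e-05). Over all features 1.42% were at least 2-fold higher on both arrays. Ddx52 read 0.85 and 0.66, Ddx10 0.62 and 0.92, Ddx21 0.71 and 0.62 and Ddx55 0.74 and 0.51, all ribosome assembly genes. Dhx30 read 0.84 and 0.65 and Ddx39a read 0.64 and 0.49. These 8 stood above 0.49 on every array, the highest of the family. The Ddx10 call was lost when either array was left out. The called ratios of Ddx18, Ddx31, Ddx54, Ddx47 and Ddx50 were smaller, from 0.22 to 0.35, and so were those of the splicing genes Ddx46, Dhx8, Ddx42 and Dhx15, from 0.24 to 0.46. Dhx8, counterpart of yeast Prp22, which releases the spliced mRNA, was called in this comparison and in no other, as were Dhx9 and Ddx19b.

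**Figure D4:**
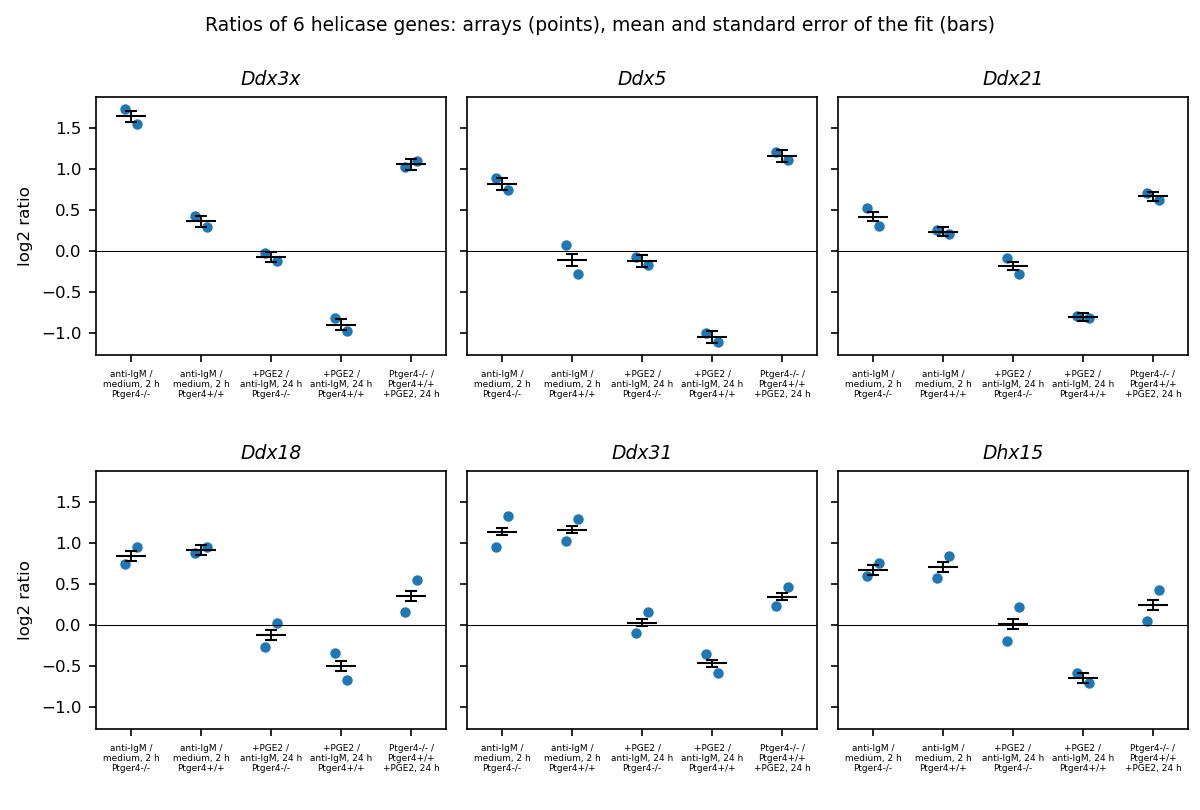
Log2 ratio of 6 helicase genes on each array (points, 2 per comparison) with the mean and standard error of the fit (bars), for the 5 comparisons on the horizontal axis. Ddx3x and Ddx5 are higher with anti-IgM in Ptger4-/- than in Ptger4+/+ cells, Ddx31 and Ddx18 are at similar ratios in both, and each of the 6 genes is below 0 with PGE2 in Ptger4+/+ cells and above 0 for Ptger4-/- over Ptger4+/+ cells.

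Dhx9 was called higher in Ptger4-/- cells by 0.15 ± 0.04, with 0.11 and 0.19 on the arrays, and the call was lost in 7 of 9 alternatives, among them leaving out either array. Ddx58 read -0.09 and 0.32 and was not called. Ddx1 had arrays of opposite sign, at -0.40 and 0.37, with the higher again from the array that had the Ptger4-/- RNA in Cy5. Ddx41, a splicing factor also known as a sensor of DNA, read -0.69 and -0.15, below 0 on both arrays by unequal amounts. The 2 probes of Ddx17 were called in opposite directions, at -0.49 and 0.37, and its mean was not called. The 4 probes of Ddx6 ranged from -0.48 to 0.37.

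Set over all 5 comparisons, 14 members were called in none, 5 in 1, 7 in 2, 11 in 3 and 10 in 4. The 10 members called in 4 shared one order of calls: higher with anti-IgM in Ptger4-/- and in Ptger4+/+ cells, not called with PGE2 in Ptger4-/- cells, lower with PGE2 in Ptger4+/+ cells, and higher in Ptger4-/- than in Ptger4+/+ cells with both agents. They were Ddx18, Ddx21, Ddx31, Ddx50 and Ddx54 of ribosome assembly, Dhx15 and Ddx42 of splicing, Ddx3x and Ddx39a, and Dhx30. Neither the number of calls nor this order was counted over all features, so neither can be read as particular to the members. With PGE2 in Ptger4-/- cells only 0.00888% of all features were called higher and 0.138% lower. The genotype arrays carry RNAs of kinds also used in the PGE2 comparisons. The 14 members never called were Ddx11, Ddx17, Ddx23, Ddx25, Ddx28, Ddx4, Ddx41, Ddx56, Ddx58, Ddx59, Dhx32, Dhx34, Dhx35 and Dhx38.

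Helicases outside the naming rule were counted in the same way. Of 19 listed, 18 were measured: 7 were called higher and 1 lower with anti-IgM in Ptger4-/- cells, and 4 higher and none lower in Ptger4+/+ cells. Over all features, 11.6% were called higher and 11.7% lower in Ptger4-/- cells, and 9.71% and 11.4% in Ptger4+/+ cells. Eif4a1, the DEAD-box helicase of translation initiation, rose by 1.53 ± 0.05 in Ptger4-/- and 1.28 ± 0.05 in Ptger4+/+ cells, and Supv3l1, a helicase of mitochondrial RNA decay, by 1.24 ± 0.06 in Ptger4-/- and 1.06 ± 0.06 in Ptger4+/+ cells. With PGE2, none of these helicases was called in Ptger4-/- cells. In Ptger4+/+ cells 10 were lower and 1 higher, against 17% and 9.11% of all features. With both agents 10 were higher in Ptger4-/- than in Ptger4+/+ cells and 2 lower, against 15.9% and 11% of all features. Ifih1, a cytosolic sensor of long double-stranded RNA related to RIG-I, was called lower with PGE2 in Ptger4+/+ cells at -0.52 ± 0.06, unlike Ddx58, though the difference between these genes was not tested.

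Of 25 listed partners of helicases, 23 were measured, with 6 higher and 5 lower with anti-IgM in Ptger4-/- cells and 9 higher and 5 lower in Ptger4+/+ cells. The shares of all features were 11.6% higher and 11.7% lower in Ptger4-/- cells, and 9.71% and 11.4% in Ptger4+/+ cells. Pdcd4, which blocks Eif4a1, was called lower at -1.68 ± 0.05 in Ptger4-/- and -1.79 ± 0.05 in Ptger4+/+ cells, and Trim25, a ubiquitin ligase that activates RIG-I, at -1.50 ± 0.07 in Ptger4-/- and -1.20 ± 0.07 in Ptger4+/+ cells. Eif4b, a cofactor of Eif4a1, was called lower in Ptger4-/- cells, with -1.05 and -0.92 on the arrays, and was not called in Ptger4+/+ cells. The difference between genotypes was -1.12 ± 0.08 (limma adjusted p = 0.00627). With PGE2 none of the partners was called in Ptger4-/- cells. In Ptger4+/+ cells 12 were lower and 1, Trim25, was higher, against 17% and 9.11% of all features.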

How the data were processed

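Total RNA of mouse splenic B cells was amplified and hybridised on 10 two-colour arrays of 25344 probes, 2 per comparison with exchanged dyes. The authors deposited log ratios per array, centred near 0. The deposited table states neither the log base nor the direction, so values were read as log2 of Cy5 over Cy3. Base 10 is barred by the lowest value, -9.03, which is beyond the 4.82 a 16-bit scanner allows, whereas the natural log, which allows 11.1, could not be told apart from base 2. No intensities were used, so signal over background is unknown, and the number of arrays limits precision. Array medians lay between 0.000895 and 0.0148, with no missing value. Tools and settings of the authors' image analysis and normalization are not given in the sources used here.

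Ratios were turned by the dye labels. For 1 Ptger4-/- array at 2 h, the medium channel is known from its source name alone. Of the probes, 21111 had 1 gene symbol, none had several and 4233 had none; symbols of 3974 were updated through RefSeq synonyms. Probes were averaged by gene, and probes without a symbol were kept singly, giving 22533 features. All arrays entered 1 limma fit (version 3.58.1, R 4.3.3) with the 5 comparisons and a dye effect per feature (4 residual and 3.13 prior degrees of freedom). The dye effect itself was called for 21 of 47 members and 8547 of all features. Differences of responses were contrasts of that fit. P-values were adjusted over all features by Benjamini-Hochberg, and 0.05 was the limit. The fit was tested on simulated data. Values of single arrays are given for up to 8 called members with the largest change in each direction of a comparison, for members called in a difference of responses, and for the RNA sensors and Ddx3x. Some others are named with array values because their arrays or probes disagreed, which was seen in the data. Members, roles and lists were chosen with earlier results of these data known. Alternatives were no dye term, arrays centred or scaled, a minimum change of 1.5-fold, a limit of 0.01, only the arrays compared, symbols as given, single probes, each array left out and, chosen after seeing the data, counting a call only where both arrays share its sign.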

Additional observations from a re-analysis of the deposited data

Results flagged for a closer look

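The difference between Ptger4-/- and Ptger4+/+ cells in the same response was tested for each member as a contrast of the limma fit, and 15 results passed. For anti-IgM over medium at 2 h, the response was higher in Ptger4-/- cells by 1.28 for Ddx3x and by 0.92 for Ddx5 on the log2 scale.

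For PGE2 with anti-IgM over anti-IgM at 24 h, the log2 ratio was higher in Ptger4-/- than in Ptger4+/+ cells by 0.93 for Ddx5, 0.91 for Ddx52, 0.82 for Ddx3x, 0.73 for Ddx46, 0.66 for Dhx15, 0.62 for Ddx21, 0.56 for Ddx39a and 0.56 for Dhx30. It was higher by 0.52 for Ddx54, 0.50 for Ddx31, 0.38 for Ddx18, 0.32 for Ddx20 and 0.31 for Ddx55. The 2 arrays of PGE2 in Ptger4-/- cells correlated at r = -0.21 over all probes after turning by dye, and what part that has in these differences was not tested.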

How the results depend on the processing

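No called direction of a named member reversed under any alternative that gave a ratio for its gene. Ratios that were not called crossed 0 in some, such as Ddx5 with anti-IgM in Ptger4+/+ cells, from -0.26 to 0.04, and Ddx58 between genotypes, from -0.05 to 0.28. Single probes entered the counts only, and some lay on the other side of 0 from a called gene. With anti-IgM, 1 Ints6l probe read 0.13 in Ptger4-/- and 0.12 in Ptger4+/+ cells, though the gene was called lower in each. Likewise, 1 Ddx46 probe read 0.03 in Ptger4+/+ cells, where Ddx46 was called lower. Without a dye term, 2 members were lower with anti-IgM in Ptger4+/+ cells (6 in the fit reported), 15 lower with PGE2 in Ptger4+/+ cells (24), 12 higher in Ptger4-/- over Ptger4+/+ cells (21), and 1 and 7 higher in the differences of the anti-IgM and PGE2 responses (2 and 13). With a minimum change of 1.5-fold, anti-IgM counts were 3 higher and 0 lower in Ptger4-/- cells and 2 higher and 0 lower in Ptger4+/+ cells, 1 was lower with PGE2 in Ptger4+/+ cells, 2 were higher between genotypes, and 0 in either difference of responses. At a limit of 0.01, 13 were higher and 3 lower with anti-IgM in Ptger4+/+ cells, 13 higher between genotypes and 1 in the difference of the anti-IgM responses. In fits to only the arrays compared, these were 11, 2, 8 and 0, with 6 lower for PGE2 in Ptger4+/+ cells and 0 in the difference of the PGE2 responses. By single probes, 5 were lower with anti-IgM in Ptger4-/- cells and 2 lower between genotypes.

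Leaving out 1 array gave 14 to 16 higher and 2 to 3 lower with anti-IgM in Ptger4-/- cells, 9 to 14 higher and 1 to 2 lower in Ptger4+/+ cells, 13 to 20 lower with PGE2 in Ptger4+/+ cells, 9 to 11 higher between genotypes, and 1 to 2 and 9 to 12 higher in the differences of the anti-IgM and PGE2 responses. Where a count fell, fewer arrays or a stricter limit is part of the alternative's construction; for the dye term and single probes the cause was not tested. Counting calls only where both arrays share the sign, and centring the arrays, moved no count by over 1.5 times. No paired analysis was possible because the labels carry no replicate numbers. With 2 arrays a comparison and no intensities, dim probes could not be set apart.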
